A study of Junco hyemalis with 48 samples.

Results

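The dark-eyed junco is a songbird with white outer and dark inner tail feathers. This account is of 118 of the 20808 gene models in its feather count table, chosen because their level was higher in the white outer feather than in the dark inner feather. The outer feather is the sixth rectrix, called R6, and is white along its length, whereas the inner one is the second rectrix, called R2, and is dark along its length. CPM values, which are counts divided by the library total on the customary scale, were averaged over the left and right feather of each bird. A gene model was taken when it averaged at least 1 CPM in R6, averaged at least 1.5 times as much in R6 as in R2, and was above R2 in R6 in each of the 6 birds with both. Of 13173 gene models with at least 1 CPM in R6, 173 met the ratio and 118 of these were also above in every bird.

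The study compared 4 tissues of the same birds, and the labels leave their genotype, sex and age unstated. R6 white had 13 libraries from 7 birds, the white part of the fourth rectrix (R4 white) 11 from 6 birds, its dark part (R4 dark) 13 from 7 birds, and R2 dark 11 from 6 birds. In all groups the old feathers had been plucked and the growing replacements were pulled 14 days later. R6 and R2 were frozen whole while R4 was dissected into its 2 colours, so feather position and dissection cannot be told apart between R4 and the other feathers. Birds are called A to G. Bird C had no library of R4 white and bird E none of R2.

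A growing feather is a tube of dividing and hardening skin cells around a living pulp. Melanocytes at its base pass pigment granules to the barb cells, and tissue that receives no melanin is white. Feathers of different rows and positions also differ in shape and size, and position along the body is known to be encoded in skin by locally expressed patterning genes. A gene that goes with colour would have R4 white at the level of R6 and R4 dark at that of R2. A gene that goes with position would have both parts of R4 alike, at any level from that of R2 to that of R6. The deposited table gives each gene model as the letter g and a number with no gene name, so no function is attached to any member.

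Library totals lay between 12.99 M and 53.46 M counts (M, mega), with medians of 23.9 M in R6, 18.6 M in R4 white, 20.5 M in R4 dark and 18.1 M in R2. The 20 most abundant gene models took 11.3% to 25.1% of counts in libraries of R4 parts and 13.3% to 16.01% in whole feathers. These are whole-tissue libraries, in which fewer cells of a type and less RNA per cell cannot be told apart. Calls are those of edgeR with a p under 0.05 after Benjamini-Hochberg adjustment over all gene models tested.

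The members were mostly of low abundance. Their median R6 level was 4.04 CPM, against 23.4 CPM over all gene models with at least 1 CPM in R6. In R6, 69 members averaged under 5 CPM, 32 at least 10 CPM and 3 at least 100 CPM. The ratio of R6 to R2 had a median of 1.83 and reached 5.43, with 73 members under 2 and 9 at 3 or more. These values chose the members and are given as a description. In the edgeR fit of all feathers, which all 118 members entered, 46 of them were called higher in R6 than in R2, where 0.454% of the 15844 gene models tested were called higher and 51.3% had a log2 fold above 0. That contrast is the one used for the choice and nothing is read from the count. Just inside the ratio of 1.5 lay g20109 (1.507), g16359 (1.509) and g10059 (1.51), and just outside it lay g20713 (1.4998), g15012 (1.498) and g5929 (1.496). The first of these averaged 3.21 CPM ± 0.975 (SD, n = 7 birds) in R6 and 2.13 CPM ± 0.869 (SD, n = 6) in R2. For g20713, left out by the ratio alone, the averages were 39.2 CPM ± 12.9 (SD, n = 7) in R6 and 26.1 CPM ± 6.45 (SD, n = 6) in R2. The spread between birds was thus far wider than the distance of either from the threshold.

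In the parts of R4, the members had much the same mean level in the white and the dark part, between those of R6 and R2. The member score of a profile is the mean of log2(CPM + 0.1) over the 118 gene models. It averaged 2.28 ± 0.13 (SD, n = 7 birds) in R6, 1.50 ± 0.46 (SD, n = 6) in R4 white, 1.57 ± 0.47 (SD, n = 7) in R4 dark and 1.33 ± 0.11 (SD, n = 6) in R2. The choice of members fixes the distance of R6 from R2. Since it took gene models high in the R6 libraries and low in the R2 libraries, it also favours R4 levels between them, and the order of R4 against R6 and R2 is a description. Only the comparison of the R4 parts' scores with each other, by library-total CPM, used no library of the choice. With TMM-scaled library sizes, which correct for a few abundant transcripts taking a larger share, the averages were 2.27, 1.55, 1.56 and 1.33 in the same order. Within a bird, R6 minus R4 white averaged 0.81 ± 0.55 (SD, n = 6) and R6 minus R4 dark 0.71 ± 0.47 (SD, n = 7). R4 white minus R2 averaged 0.23 ± 0.57 (SD, n = 5) and R4 dark minus R2 0.20 ± 0.50 (SD, n = 6). R6 was above either R4 part in every bird with both. R4 white was above R2 in 4 of 5 birds, and R4 dark was above R2 in 5 of 6.

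**Figure D1:**
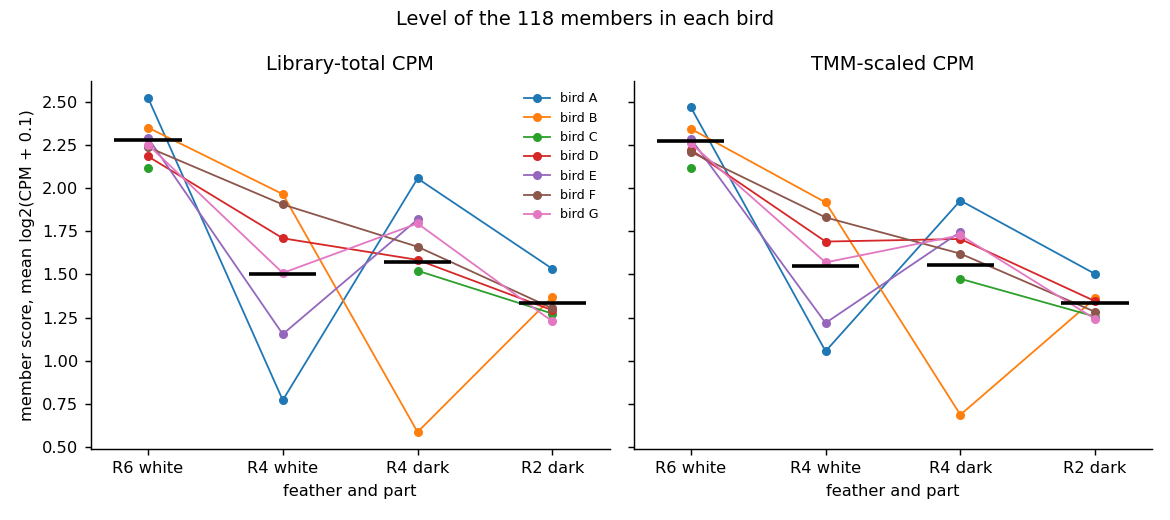
Mean log2(CPM + 0.1) of the 118 members (vertical axis) in each tissue (horizontal axis), from library-total CPM on the left and TMM-scaled CPM on the right. Points are birds, joined by lines where neighbouring tissues of 1 bird were sampled, and black bars are group means; R6 scores lie between 2.12 and 2.53 and R2 scores between 1.23 and 1.53, while R4 white spans 0.77 to 1.97 and R4 dark 0.59 to 2.06.

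The first contrast that the choice did not use was that of the white with the dark part of R4. The R6 and R2 libraries still entered this fit, in the bird terms and in the shared spread. Member scores varied more between birds in R4 white and R4 dark (SD 0.46 and 0.47) than in R6 and R2 (SD 0.13 and 0.11). Only g258 was called, higher in R4 white, and 0 members were called lower. This call was lost when only R4 was fitted. Over all gene models tested, 0.259% were called higher and 0.48% lower in R4 white. The median log2 fold of R4 white over R4 dark was -0.01 for the members and -0.00268 for all gene models. It was above 0 for 56 of 118 members, where 49.4% of gene models tested were above 0. DESeq2 called 2 members. An unadjusted p below 0.05 in edgeR was found for 11 members, and for 2072 of all 15844 gene models tested. With R4 dark of bird B left out, 7 members were called, 4 higher and 3 lower in R4 white, and the median was -0.15. Without bird B altogether 12 were called, and without bird A, D, E, F or G none was. Shares of all gene models called in DESeq2 and in these refits are not given here. Nothing particular to the members is read from these counts.

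No member had every R4 white profile above every R4 dark profile or the reverse, arrangements met by 0% and 0.107% of gene models tested. By library-total CPM, 0 members were above in the white part in all 6 birds with both parts, and 0 in none of them, where the shares of gene models tested were 0.499% and 2.43%. It was 2 birds for 22% of members and 36% of gene models tested, 3 birds for 31.4% and 28.2%, and 4 birds for 26.3% and 14.3%. On this scale the mean of R4 white was above that of R4 dark for 47 members, and 25.1% of gene models tested lay that way, whereas in the TMM-scaled fit the shares were those given above.

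The birds went opposite ways within R4. Bird A had 13 of 118 members higher in R4 white than in R4 dark, with a median log2 difference of -1.34, and bird E had 32, with a median of -0.60. Of all gene models tested, 21.7% in bird A and 34.5% in bird E were higher in R4 white. Bird B had 102 members higher in R4 white, with a median of 1.24, where 66.4% of gene models tested were higher. Birds D, F and G lay between these, with medians of 0.10, 0.23 and -0.25. By library-total CPM the median of all gene models tested also moved within R4, by -0.40 in bird A and 0.16 in bird B. It moved by -0.15 in bird E, -0.19 in bird G, -0.04 in bird D and 0.04 in bird F. After TMM scaling, which puts that median between -0.02 and 0.01 in every bird, the member medians were -0.95 in bird A, 1.08 in bird B, -0.45 in bird E, 0.19 in bird F, 0.01 in bird D and -0.04 in bird G. The white-minus-dark score difference averaged -0.08 ± 0.91 (SD, n = 6 birds), against 0.95 ± 0.07 (SD, n = 6) for R6 minus R2, whose direction the choice fixed. By RNA extraction batch, of which there were 3, the mean white-minus-dark difference was 0.05 over birds A and B in batch 1, 0.13 in bird D in batch 2, and -0.02 over birds F and G in batch 3. It was -0.67 in bird E, whose white part was extracted in batch 3 and whose dark part was extracted in batch 2.

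The low member scores in R4 went with a large share of counts in few gene models. The 4 R4 profiles with the largest share in the 20 most abundant gene models were R4 white of birds A, E and G and R4 dark of bird B, at 16.45% to 23.2%. The same 4 had the lowest member scores of the 13 R4 profiles, 0.59 to 1.51. The other 9 R4 profiles had shares of 11.6% to 16.04% and scores of 1.52 to 2.06. Whole feathers had shares in a narrow range, and R6 and R2 scores did not overlap there. The choice required R6 above R2 within each bird, which favours this separation across birds, and it is a description. With TMM scaling the ranges overlapped, with scores of 0.69 to 1.57 in the 4 profiles and 1.48 to 1.93 in the others. The part of library composition in the R4 levels was not tested. Without these 4 profiles, an alternative chosen after they had been seen, 1 member was called between the R4 parts and the median log2 fold of R4 white over R4 dark was 0.11.

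**Figure D2:**
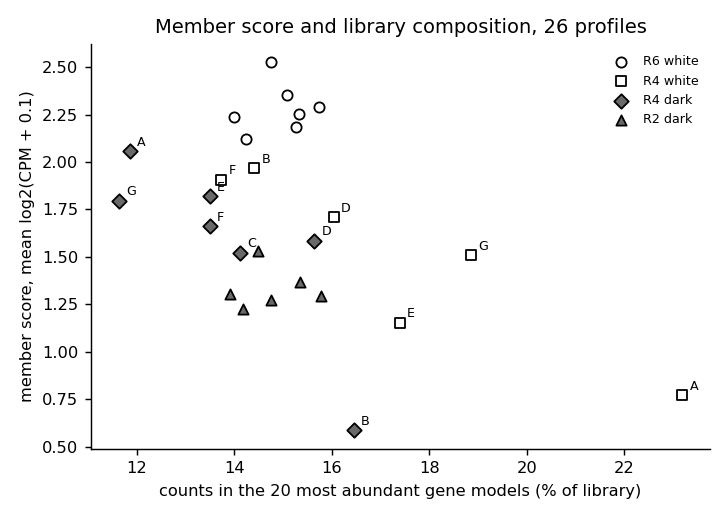
Member score, mean log2(CPM + 0.1) over 118 gene models (vertical axis), against the percentage of a profile's counts held by its 20 most abundant gene models (horizontal axis), for 26 profiles of a bird and tissue. R4 points carry their bird letter; the R4 white parts of birds A, E and G and the R4 dark part of bird B have shares of 16.45% or more and the 4 lowest R4 scores, up to 1.51.

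The sides of each tail were compared next. The median absolute left-right difference over members was 0.24 on the log2 scale in R6, 0.56 in R4 white, 0.39 in R4 dark and 0.29 in R2. In the R4 dark parts of bird D the left feather was above the right one by a median of 1.16, and in the R4 white parts of bird A it was below by 0.60. The coefficient of variation between birds had a median over members of 33.1% in R6, 48.0% in R4 white, 47.4% in R4 dark and 35.7% in R2, against 14.8%, 20.6%, 19.9% and 16.1% for all gene models tested.

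Where each member stood between R2 and R6 was expressed as its place, 0 at the R2 level and 1 at the R6 level on the log2(CPM + 0.1) scale, from mean CPM over the 5 birds with all tissues. The median place was 0.25 for R4 white, with quartiles of 0.07 and 0.54, and 0.30 for R4 dark, with quartiles of 0.16 and 0.52. Both R4 parts lay nearer to R2 for 72 of 118 members and both nearer to R6 for 20. The arrangement that follows colour, white nearer to R6 and dark nearer to R2, was found for 14 members, and its reverse for 12. With TMM scaling these counts were 14 and 7. Of 132 left-chosen gene models placed with right feathers, 25 had the colour-like arrangement and 7 its reverse. In that placing, over 4 birds, the median place was 0.28 for R4 white and 0.09 for R4 dark, and 34 lay below R2 in R4 white and 58 in R4 dark. R4 white was below R2 for 23 members and above R6 for 7, and R4 dark was below R2 for 13 and above R6 for 3. With means over all birds of each tissue in place of these 5, R4 white was below R2 for 29 members and R4 dark for 12. Within 0.1 of the midpoint lay 31 members in R4 white and 19 in R4 dark. The counts depended on the birds: 54 members had both parts nearer to R2 without bird A and 53 without bird B, the colour-like arrangement counted 37 without bird A and 8 without bird B, and its reverse 5 without bird A, 37 without bird B and 6 without bird G. Birds D and F were the only ones with 4 tissues outside the 4 profiles named above. With them alone, 29 members had both parts nearer R2 and 27 both nearer R6. The colour-like arrangement then counted 38 and its reverse 24. Profiles average the sides, however, and single libraries of bird D reached the shares of those 4 profiles. Its 20 most abundant gene models took 13.1% (left) and 18.2% (right) of counts in R4 dark. In R4 white they took 16.5% (left) and 15.6% (right).

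**Figure D3:**
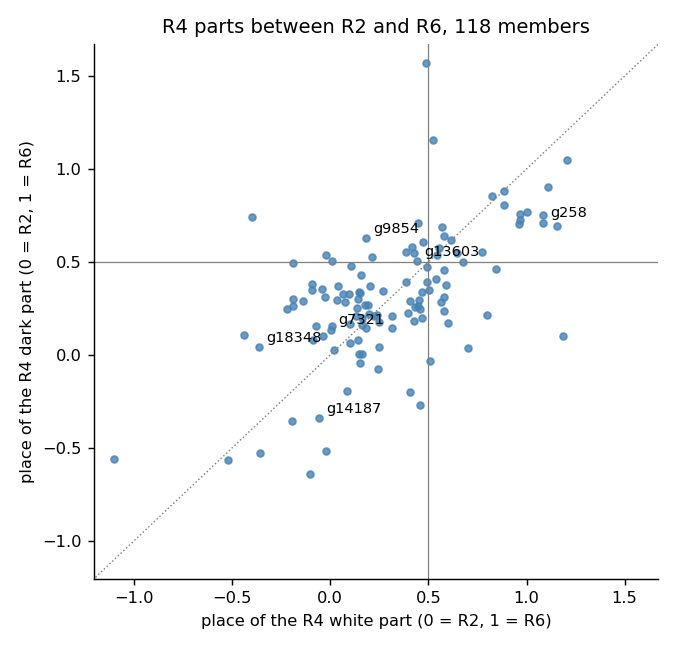
Place of R4 white (horizontal) and R4 dark (vertical) between R2 (0) and R6 (1) for each of the 118 members, from log2(CPM + 0.1) of means over 5 birds, with grey lines at 0.5 and a dotted line where both parts are equal. In the lower left, nearer R2 for both parts, lie 72 members, and 14 lie in the lower right, where R4 white is nearer R6 and R4 dark nearer R2.

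The same rule was also applied the other way round. There were 87 that averaged at least 1 CPM in R2 and at least 1.5 times as much as in R6, and were above R6 in every bird. Of these, 26 were called lower in R4 white than in R4 dark and 0 higher, where 0.48% and 0.259% of gene models tested were. Their median log2 fold was -0.55, and 6 of 87 were above 0, where 49.4% of gene models tested were. Their median place was 0.85 for R4 white and 0.30 for R4 dark on the same scale from R2 (0) to R6 (1). The corresponding places of the 118 members were 0.25 and 0.30. All these places rest on the R6 and R2 libraries that chose the 2 lists and are a description. The difference between the 2 lists was not tested.

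The same rule was then put to each other pair of tissues. At least 1 CPM and 1.5 times as much in R4 white as in R4 dark, in every bird, was met by 8 gene models of the table (0.0505% of those tested), and 0 of them were members; for R4 dark over R4 white it was met by 27, of which 0 were members. Against the 118 of R6 over R2 (0.745% of those tested), R6 over R4 white had 177 gene models (1.12%), among them 53 members, and R6 over R4 dark had 95 (0.6%), among them 46 members. For R4 white over R2 it was met by 58 (0.366%), with 12 members, and for R4 dark over R2 by 16 (0.101%), with 8 members. The last 4 pairs share the R6 or R2 libraries with the choice, so their member counts are not independent of it.

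To measure the distance from R6 and R2 in libraries that had not chosen the members, the rule was applied to left feathers alone and the chosen gene models were measured in right feathers of the same birds. Left feathers gave 137 gene models, 92 of which are among the 118. In right feathers, 18 of the 137 were called higher in R6 than in R2 and 0 lower, where 0.148% and 0.37% of gene models tested were. The median log2 fold of R6 over R2 was 0.70, and 129 of 137 were above 0, where 51.5% of gene models tested were. Choice and measurement used the same birds, so these calls compare the sides of a tail and not separate animals. Without 1 bird, left out of both choice and measurement, the count lay between 6 and 15, lowest without bird A or G, and it was 9 without bird D and 10 without bird C. Shares of all gene models called in these refits are not given here, and nothing is read from this range.

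The whole distance from R6 to R2 in right feathers divides into 3 steps. The middle one, R4 white over R4 dark, lies within a feather, and the outer ones compare whole with dissected feathers. For R6 over R4 white the median log2 fold of the left-chosen gene models was 0.43, and 102 of 137 were above 0, where 47.1% of gene models tested were. Only g7321 was called higher in this step and 0 were called lower, where 0.0942% and 0% of gene models tested were. In this step 36 had an unadjusted p below 0.05 in edgeR, and 808 of all 14855 gene models tested had. DESeq2 called 7, and edgeR without the bird term called 0. The call was lost without bird A, B or G, and 2 were called without bird F. For R4 white over R4 dark the median was 0.28, with 109 of 137 above 0 against 51.7%. The right R4 dark library of bird D, where the members were below the left one by a median of 1.16, entered this step. 0 of the 137 were called in edgeR, where 0.00673% of gene models tested were called higher and 0.0135% lower. An unadjusted p below 0.05 was found for 16, and for 1360 of all 14855 gene models tested. DESeq2 called 3. Without bird F 6 were called, 5 higher and 1 lower. For R4 dark over R2 the median was 0.08, with 79 of 137 above 0 against 53.3%. Again 0 were called in edgeR, where 0% of gene models tested were called. Here 13 had an unadjusted p below 0.05, as had 683 of all 14855 gene models tested, and DESeq2 called 1. With R4 dark of bird B left out, these 3 medians were 0.44, 0.09 and 0.19. For DESeq2 and for the refits without a bird or the bird term, shares of all gene models called are not given here. Nothing particular to the chosen gene models is read from those counts.

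With the reverse choice the median of the step from R4 white to R6 was again above 0, and that of the middle step was not. Right feathers chose 133 gene models, of which 132 could be tested in left feathers and 69 were also chosen on the left, 50.4% of the left and 51.9% of the right choice. In left feathers the medians were 0.62 for R6 over R4 white, with 121 of 132 above 0, then -0.08 for R4 white over R4 dark, with 53 above 0, and 0.24 for R4 dark over R2, with 98 above 0. Of all 14581 gene models tested there, 7398, 7114 and 8003 were above 0 in the same order. In edgeR 1, 0 and 2 of the 132 were called higher and 0 lower. Over all gene models tested, 3, 15 and 2 were called higher and 2, 16 and 11 lower. The step between the R4 parts thus had opposite signs in right and left feathers, while that from R4 white to R6 was positive in both. The measurements in right and left feathers differ in the choice, the side and the birds, which cannot be told apart here. Both choices took gene models high in R6 and low in R2 of the same birds. This favours positive values in the 2 outer steps, whose signs are a description. Bird E had left feathers only, and R2 of bird F came from the left alone. The test of whether R6 over R2 differs from R4 white over R4 dark called 0 of 137 in right feathers in edgeR, where 0.00673% of gene models tested were called higher and 0% lower. Of the 137, 113 were above 0, where 49.6% of gene models tested were. An unadjusted p below 0.05 was found for 31, and for 838 of all 14855 gene models tested. DESeq2 called 5. With the reverse choice this test in edgeR called 4 of 132 in left feathers, each with the larger difference between whole feathers. Among all 14581 gene models tested, 4 were called that way and 4 the other. Both lists were chosen for R6 above R2 in the same birds, which favours values above 0 in this test. Its counts are a description.

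**Figure D4:**
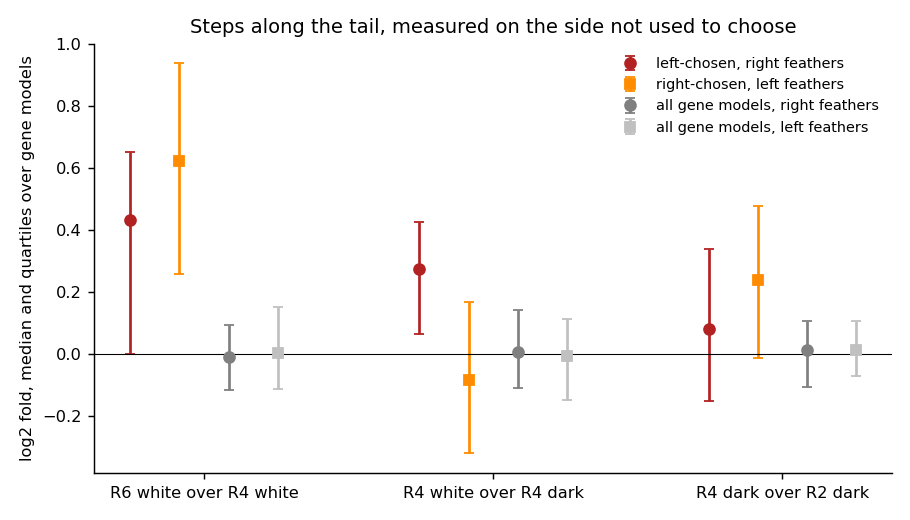
Log2 fold (vertical axis) of each step from R6 to R2 (horizontal axis), of which R4 white over R4 dark lies within a feather. Gene models were chosen on left feathers and measured in right ones, and the reverse, and stand beside all gene models tested on each side. Points are medians and bars run from the lower to the upper quartile over gene models; the R6 over R4 white medians are 0.43 and 0.62, while those of R4 white over R4 dark are 0.28 and -0.08.

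Among members with at least 5 CPM in R6, g7321 had the largest ratio of R6 to R2, 3.77. It held 2.12, 4.00 and 9.60 CPM in R6 (lowest, median and highest of 7 birds), 0.43, 1.11 and 3.34 CPM in R4 white, 0.21, 1.42 and 3.36 CPM in R4 dark, and 0.63, 1.28 and 2.14 CPM in R2. R6 in birds B, C and F lay within the range of the R4 parts, and the lowest 2 of these also within that of R2. In right feathers, the log2 fold of R6 over R4 white was 1.86 (SE 0.31, adjusted p = 0.0223 in edgeR). The choice of members used these R6 libraries too and favours a positive fold. The R4 parts themselves did not pass the test, with a log2 fold of R4 white over R4 dark of -0.18 (SE 0.34, adjusted p = 0.849) in all feathers.

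In g14187 the R4 parts again had levels near those of R2. It held 4.83, 11.7 and 20.4 CPM in R6 (lowest, median and highest of 7 birds), 1.98, 4.89 and 5.65 CPM in R4 white, 0.63, 3.93 and 5.92 CPM in R4 dark, and 1.83, 4.00 and 7.10 CPM in R2. R6 in bird C lay inside the ranges of the other tissues and R6 in bird D inside that of R2, while the other R6 birds were above all of them. In right feathers R6 over R4 white was 1.62 on the log2 scale (SE 0.37), which did not pass the test (adjusted p = 0.183 in edgeR). Of the other members with a high ratio, g9855 and g21105 averaged 17.1 CPM ± 4.43 and 12.3 CPM ± 2.78 (SD, n = 7) in R6, 8.08 CPM ± 4.30 and 4.93 CPM ± 2.44 (SD, n = 6) in R4 white, 7.66 CPM ± 4.15 and 5.85 CPM ± 2.82 (SD, n = 7) in R4 dark, and 6.09 CPM ± 3.02 and 4.71 CPM ± 1.38 (SD, n = 6) in R2. Both R4 parts of each were thus within 1 SD of R2. g7499 averaged 19.5 CPM ± 6.74 (SD, n = 7) in R6, 10.2 CPM ± 5.55 (SD, n = 6) in R4 white, 8.92 CPM ± 4.05 (SD, n = 7) in R4 dark and 6.63 CPM ± 4.06 (SD, n = 6) in R2. In right feathers its R6 over R4 white was 1.05 (SE 0.24, adjusted p = 0.152 in edgeR) and its R6 over R2 was 1.88 (SE 0.25, adjusted p = 0.000846 in edgeR). The choice of members also used these right R6 and R2 libraries, so the R6 over R2 value is a description.

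The most abundant member was g4976, with 193, 234 and 333 CPM in R6 (lowest, median and highest of 7 birds), 57.7, 154 and 173 CPM in R4 white, 21.4, 165 and 257 CPM in R4 dark, and 94.5, 116 and 144 CPM in R2. Every R6 bird was above every R4 white and every R2 bird, while R4 dark of birds A, E and G lay within the R6 range. The lowest R4 values were those of R4 dark in bird B and R4 white in birds A and E, which are below every R2 bird. Between the R4 parts the log2 fold was -0.28 (SE 0.35, adjusted p = 0.770 in edgeR), and it changed sign over 17 alternatives, which ran from -0.63 to 0.39. The next most abundant members were g10621, g558, g9538 and g9522, whose R6 averages lay between 55.1 and 133.8 CPM. Their ratios of R6 to R2 were 1.52 to 1.67, and their R4 parts averaged 28.2 to 88.8 CPM, with SDs in R4 of 13.3 to 54.7 CPM. Adjusted p-values for the R4 parts of these 4 were 0.761 to 0.960 in edgeR. For g558 the fold ran from -0.50 to 0.74 over the alternatives.

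g13603 stood between R6 and R2 in both parts of R4. It held 34.4, 41.1 and 45.0 CPM in R6 (lowest, median and highest of 7 birds), 13.9, 26.1 and 28.9 CPM in R4 white, 16.3, 24.2 and 31.0 CPM in R4 dark, and 12.5, 16.7 and 20.5 CPM in R2. Every R6 bird was above every bird of the other 3 tissues, while R4 white of birds A and E and R4 dark of bird B lay within the range of R2. Between the R4 parts the log2 fold was -0.03 (SE 0.09, adjusted p = 0.902 in edgeR), with a smaller SE than any other member named here. In right feathers R6 over R4 white was 0.59 (SE 0.14, adjusted p = 0.191), R4 dark over R2 was 0.56 (SE 0.14, adjusted p = 0.774), and R6 over R2 was 1.27 (SE 0.14, adjusted p = 0.000156 in edgeR). The 2 steps were of like size and neither passed the test. The whole distance did, but the choice of members used these right R6 and R2 libraries too, so it is a description. g4648 had a similar course, averaging 31.1 CPM ± 9.34 (SD, n = 7) in R6, 17.8 CPM ± 4.67 (SD, n = 6) in R4 white, 20.6 CPM ± 5.04 (SD, n = 7) in R4 dark and 11.9 CPM ± 2.02 (SD, n = 6) in R2, as did g14041, at 7.86 CPM ± 1.81, 4.55 CPM ± 1.69, 4.75 CPM ± 1.78 and 3.08 CPM ± 0.734 in the same tissues.

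**Figure D5:**
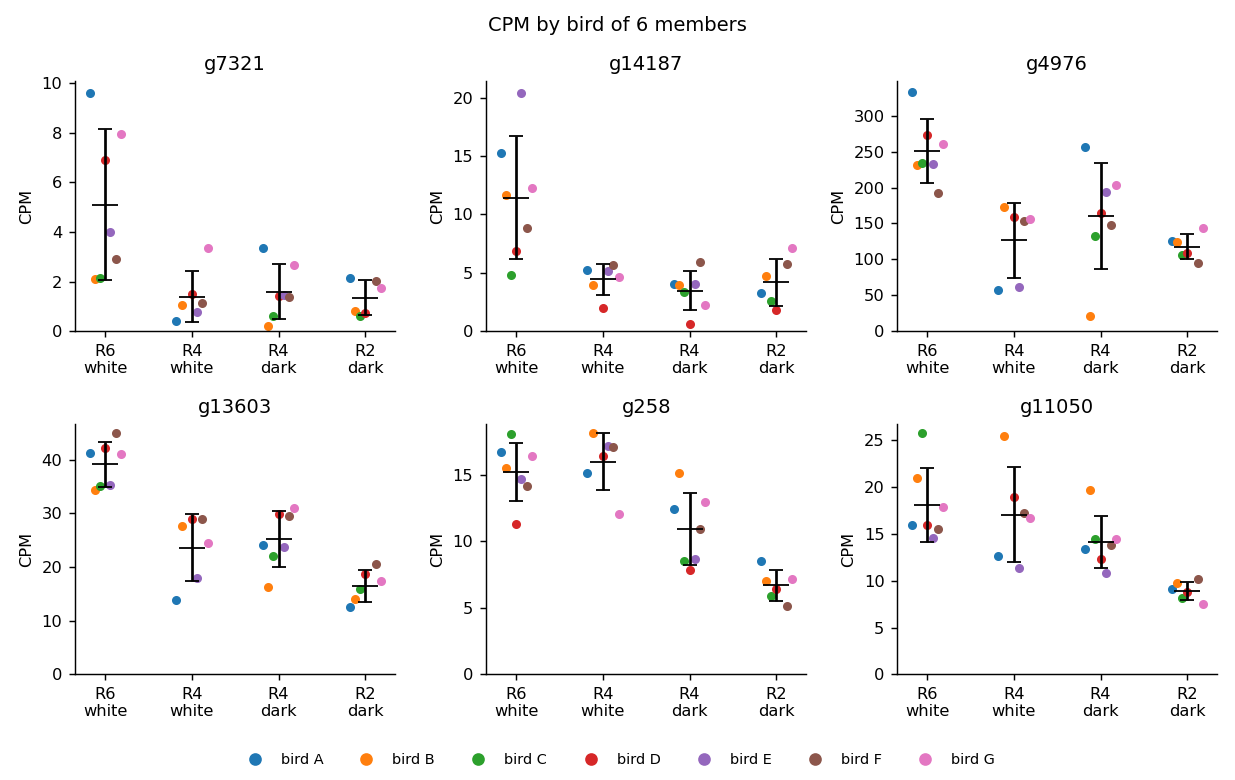
CPM (vertical axes, each from 0) of 6 members in every bird of each tissue, with black bars for the mean ± SD (n = 7 birds for R6 white and R4 dark, 6 for R4 white and R2 dark). In g7321 and g14187 both R4 parts overlap the range of R2. In g258 and g11050 R4 white lies at the level of R6, with means in R6 and R4 white of 15.3 and 16.0 CPM for g258 and of 18.1 and 17.1 CPM for g11050. The R4 dark means of these 2 are 10.9 and 14.1 CPM.

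In g258, g11050, g18961 and g13464 R4 white stood near the R6 level. By place their R4 dark was also nearer R6 than R2, at 0.71 in g258 and 0.75 in g11050, so none of them had the colour-like arrangement. g258 held 11.3, 15.5 and 18.1 CPM in R6 (lowest, median and highest of 7 birds), 12.1, 16.7 and 18.2 CPM in R4 white, 7.88, 10.9 and 15.1 CPM in R4 dark, and 5.13, 6.73 and 8.55 CPM in R2. Its R4 white birds had nearly the range of the R6 birds and all lay above R2, while R4 dark lay between and overlapped both. It was the member called within R4, with a log2 fold of R4 white over R4 dark of 0.65 (SE 0.14, adjusted p = 0.0278 in edgeR), higher in 5 of 6 birds. The fold stayed between 0.57 and 0.88 over 17 alternatives, and the adjusted p between 0.00107 and 0.984. The call was lost when bird A, D, E, F or G was left out, without the bird term, in left or right feathers taken singly, and when only R4 was fitted. In right feathers its R6 over R2 was 1.12 (SE 0.20, adjusted p = 0.0158 in edgeR), a description, since the choice also used these libraries.

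g11050 was similar, with 14.6, 16.0 and 25.8 CPM in R6 (lowest, median and highest of 7 birds), 11.3, 16.96 and 25.5 CPM in R4 white, 10.8, 13.8 and 19.7 CPM in R4 dark, and 7.53, 8.92 and 10.2 CPM in R2. Each R6, R4 white and R4 dark bird was above every R2 bird, an order that the choice of members favours. Every R4 white profile was above every R2 profile for 2 of 118 members and 0.133% of gene models tested. For R4 dark over R2 it was 2 members and 0.0568%. The log2 fold of R4 white over R4 dark of g11050 was 0.35 (SE 0.11, adjusted p = 0.128 in edgeR). It passed with R4 dark of bird B left out, at 0.42 (adjusted p = 0.0225 in edgeR). Another pair of named members, g18961 and g13464, had places of 0.96 and 0.97 in R4 white and 0.70 and 0.76 in R4 dark, and g5533 had places of 0.68 and 0.50. g18961 averaged 11.5 CPM ± 3.33 (SD, n = 7) in R6, 9.80 CPM ± 4.92 (SD, n = 6) in R4 white, 7.63 CPM ± 2.17 (SD, n = 7) in R4 dark and 4.15 CPM ± 0.761 (SD, n = 6) in R2, and its R4 parts did not pass the test (0.45, SE 0.14, adjusted p = 0.137 in edgeR). In right feathers R6 over R2 was called for g18961 at 1.46 (SE 0.18, adjusted p = 0.000398), for g5533 at 1.78 (SE 0.26, adjusted p = 0.00224) and for g13464 at 1.39 (SE 0.28, adjusted p = 0.0339), all in edgeR. The choice of members used these right R6 and R2 libraries as well, so nothing is read from these 3 calls.

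No member passed the test for a higher level in R4 dark, and the 3 with the smallest p in that direction were g9854, g21435 and g18348. g9854 averaged 2.07 CPM ± 0.958 (SD, n = 7) in R6, 0.77 CPM ± 0.381 (SD, n = 6) in R4 white, 1.43 CPM ± 0.786 (SD, n = 7) in R4 dark and 0.67 CPM ± 0.284 (SD, n = 6) in R2, from 9 to 183 counts per profile. Its log2 fold of R4 white over R4 dark was -0.83 (SE 0.27, adjusted p = 0.157 in edgeR), with R4 white higher in 1 of 6 birds, bird B. With R4 dark of bird B left out, it was -1.02 and passed the test in edgeR (adjusted p = 0.014). For g21435 the fold was -0.31 (SE 0.15, adjusted p = 0.373), and for g18348 it was -0.52 (SE 0.25, adjusted p = 0.382), all in edgeR. Without bird B the fold of g18348 was -0.80 and passed the test in edgeR (adjusted p = 0.0314). Of the other gene models chosen on left feathers, g15012, which misses the ratio in all feathers, averaged 2.34 CPM ± 0.99 in R6, 0.94 CPM ± 0.53 in R4 white, 1.44 CPM ± 0.48 in R4 dark and 1.75 CPM ± 0.37 in R2 in right feathers, and its R6 over R4 white of 1.33 (SE 0.33) did not pass the test (adjusted p = 0.235 in edgeR).

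Some members had consecutive identifier numbers. Of the 118, 15 (12.7%) had another member at the next or previous number, in 8 pairs. Of 212 gene models whose number is next to that of a member, 15 (7.08%) were members themselves, where members make up 0.567% of the table and 0.896% of gene models with at least 1 CPM in R6. Another 103 of these neighbours had at least 1 CPM in R6 without being members, and their median ratio of R6 to R2 was 1.02. Whether consecutive numbers mean neighbouring positions on a chromosome is not given in the sources used here, nor whether such gene models overlap, share reads or are pieces of 1 gene. These pairs were picked out after their identifiers had been seen.

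The run of 3 was g9853, g9854 and g9855, with ratios of R6 to R2 of 2.90, 3.11 and 2.81 and R6 averages of 1.76, 2.07 and 17.1 CPM. g7498 and g7499 averaged 1.15 and 19.5 CPM in R6, with ratios of 4.21 and 2.95. g13603 and g13604 averaged 39.1 and 4.59 CPM in R6, with ratios of 2.37 and 2.44. The R6 averages of g8230 and g8231 were nearly equal, at 1.19 and 1.26 CPM, and those of g9521 and g9522 were 5.96 and 55.1 CPM at ratios of 1.68 and 1.67. The remaining pairs were g15835 with g15836 and g18236 with g18237. Over the 13 R4 profiles, which took no part in the choice and come from 7 birds with shared libraries for both members of a pair, log2(CPM + 0.1) of the 8 pairs correlated with r between 0.203 and 0.961, with a median of 0.872. The median was 0.314 over 12027 pairs of consecutive numbers among gene models tested, and 0.324 over all pairs of members.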

How the data were processed

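Libraries were strand-marked and read at 75 bp, per the labels' protocols. Per the submitters' processing notes, STAR 2.7.2b, Subread 1.6.0, featureCounts, Trimmomatic 0.33 and bcl2fastq were used; settings, strand option, genome build and gene annotation: not given in the sources used here. What the authors deposited is a table of unnormalized counts, 1 row per gene model and 48 library columns matched to samples by title. Values of gene models that overlap or have near-identical copies are uncertain.

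The members and lists were chosen with earlier results of these data known. Left and right counts were summed per bird and tissue, which gave 26 profiles. In the 22 left and right pairs the chi-square per gene against counting noise was 4.36 or more, so no such pair was counted as 1 library deposited more than once. This covers left and right pairs only. edgeR 4.0.16 in R 4.3.3 was run with TMM factors, the default expression filter and the robust quasi-likelihood F test, with tissue and bird as terms and all 4 tissues sharing 1 estimate of the spread. SE were derived from the fold and the F statistic. DESeq2 1.42.0 was an alternative, as were other filters and scalings, no bird term, and leaving out each bird. The fit was checked on simulated counts for 15706 gene models with known folds. For R4 white over R4 dark it recovered 93.9% of 2-fold and 100% of 4-fold changes. The simulation gave all gene models the same spread. Members varied more, with a median coefficient of variation of 48.0% in R4 white and 47.4% in R4 dark, against 20.6% and 19.9% for gene models tested. The recovery therefore cannot be carried over to the members.

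Pairing rests on the same animal in each tissue: deviations from tissue means correlated within a bird with a median r of 0.55 for R6 and R2 and 0.27 for the R4 parts, against -0.10 and -0.04 between birds. The lowest was -0.21, between R4 parts. The labels hold 7 birds, while the growth protocol gives 6. With the bird term, p-values set the mean difference between tissues against a spread among these animals that is shared by all tissues. Member scores varied more in R4 white and R4 dark (SD 0.46 and 0.47) than in R6 and R2 (SD 0.13 and 0.11). The shared spread may therefore be too small for the members within R4, which was not tested. Members named were the 10 with the highest ratio at 5 CPM or more in R6, the 5 most abundant, those called within R4 or else the 3 of smallest p each way, the 5 of smallest p in right feathers for R6 over R4 white and for R4 dark over R2, and 3 on each side of the ratio threshold.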

Additional observations from a re-analysis of the deposited data

Results flagged for a closer look

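Of 91 groups of values examined, 4 had a bird far from the rest, where chance gives 4.55. In R4 dark, bird B had a member score of 0.586, with the next bird at 1.52. The score of R4 dark minus R2 was -0.783 in bird B, with the next bird at 0.249. In R4 white, g7321 had 3.34 CPM in bird G, with the next bird at 1.52 CPM. In R4 dark, g11050 had 19.7 CPM in bird B, with the next bird at 14.5 CPM, so bird B was high in this member while its member score was the lowest of the group.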

How the results depend on the processing

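The count of members called between the R4 parts, 1, was 2 in DESeq2, 0 without the replicate block for bird, 0 when only R4 was fitted, 0 in left and 0 in right feathers alone, 7 with R4 dark of bird B left out, and 0 to 12 over single birds left out. The members' median log2 fold stayed within the spread between birds, from -0.18 to 0.13 over single birds left out. In right feathers, the count of left-chosen gene models called was 0 without the replicate block and 7 in DESeq2 for R6 over R4 white (0 to 2 without single birds). For R4 white over R4 dark it was 3 in DESeq2 (0 to 6), and for R4 dark over R2 1 in DESeq2 and 2 with the reverse choice of side (0 to 0). For R6 over R2 it was 9 without the replicate block and 34 in DESeq2 (6 to 15). For the difference between whole feathers and R4 it was 5 in DESeq2, 4 with the reverse choice and 1 with R4 dark of bird B left out (0 to 1). Shares of all gene models called are given above only for the main fits, the single sides and the reverse choice. Nothing particular to the members is read from the counts of the other alternatives.

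The number of members was 258 at a lower ratio limit, 45 at a ratio of 2 and 49 at 5 CPM, and 121 to 155 without single birds. With a midpoint of 0.4 or 0.6, both R4 parts lay nearer R6 for 31 or 13 members, and at 0.6 the colour-like arrangement was met by 8. With TMM scaling its reverse was met by 7. Left-chosen gene models placed with right feathers gave 25 colour-like and 7 reverse. With birds D and F alone the counts were 29 for both parts nearer R2, 38 colour-like and 24 reverse. Without single birds the colour-like count was 8 to 37 and its reverse 5 to 37. The cause of these changes was not tested. Of 353 fold alternatives for the 21 named members, 0 reversed a call, 9 lost it and 5 gained one, and 34 changed the sign of an uncalled fold. With a median of 116 counts per member and profile, folds of the less abundant members have wide errors.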
